A study of Mus musculus with 18 samples.

Results

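The DNA between the alternative promoters of the mouse gene *Runx1* was examined for the fragments with which 6 baits of a 4C-seq experiment formed significant interactions. The members were all *Dpn*II digestion fragments that at least 1 bait listed as a significant interaction and whose midpoint lay from the P2 start site up to the P1 start site, chr16:92697329-92826074 of mm10. There were 309 such fragments, which is 15.7% of the 1970 distinct fragments listed in the whole series. The genome has 310 *Dpn*II fragments in this stretch of 128.7 kb, so membership itself separates almost nothing here. The data lie in which of the 6 baits listed each fragment, and in which category.

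*Runx1* encodes a transcription factor that blood stem cells need in order to form, and it is transcribed from a distal promoter, P1, and a proximal promoter, P2. The +24 enhancer, named for its distance in kb downstream of P1, lies between them and is a well-known blood stem cell enhancer of the gene. Enhancers are held to act on promoters through physical proximity, in part along loops and domains formed by cohesin and CTCF. 4C-seq counts the restriction fragments that were ligated to a chosen bait fragment in cross-linked nuclei, so a fragment that is often near the bait collects many reads. *Runx1* lies on the minus strand, so that downstream of P1 means a lower coordinate. The stretch held exons 1 and 2 of the P1 transcript at its P1 end, the introns after them, the start of the first exon of the P2 transcript at its other end, the RefSeq long non-coding RNA gene *Gm30281*, and the last exon of the short GENCODE transcript *Runx1*-207.

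All libraries were made from HPC-7, a cultured mouse line of blood stem and progenitor cells, without any treatment or genetic change between groups. Each of the baits P1cc, P1, +24, +24cc, P2cc and P2 had 2 replicate 4C-seq libraries from different passages of the cells and 1 control, a mix of both passages from which the first ligase was left out. Per the study's methods, all baits were amplified from the same cross-linked preparations of these cells, so the lists of different baits are not from independent cells. Baits with the ending cc lay at cohesin/CTCF sites near the bait of the same name, and a bait with its cc bait is called a pair below. The second restriction enzyme was *Mse*I for the +24 pair and *Bfa*I for the other baits, so the bait and the enzyme cannot be told apart.

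The authors called significant interactions with fourSig in windows of 3 fragments and kept those that overlapped in both replicates. Category 1 interactions stayed significant without the fragment that had the most reads, and category 2 interactions when that fragment's reads were averaged with its neighbours. The lists hold positions and categories, and a score that is the same for every fragment. The number of reads behind a fragment and the spread between replicates are therefore unknown, and a fragment that was not listed may have been near a bait without passing the authors' thresholds. The region that the authors called separately around the gene is called the domain here, and its 3221 *Dpn*II fragments serve as the background.

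The sequences below are those of sites named in the text, written 5′ to 3′ on the plus strand of GRCm38.p6, the same coordinates as mm10. Capitals mark matches on either strand to the core of the RUNX motif (TGTGGT), to a GATA motif (AGATAA), to an ETS motif (GGAAGT), to the E-box (CAGCTG) or the variant E-box (CAGATG), and to part of the CTCF motif (AGGTGG). Of the fragments listed as category 1 by the most baits, 1 was listed by all 6, and the middle 300 bp of its 467 bp are shown first, followed by the 4 fragments of at most 300 bp that 5 baits listed as category 1.
chr16:92810259-92810558, 6 baits: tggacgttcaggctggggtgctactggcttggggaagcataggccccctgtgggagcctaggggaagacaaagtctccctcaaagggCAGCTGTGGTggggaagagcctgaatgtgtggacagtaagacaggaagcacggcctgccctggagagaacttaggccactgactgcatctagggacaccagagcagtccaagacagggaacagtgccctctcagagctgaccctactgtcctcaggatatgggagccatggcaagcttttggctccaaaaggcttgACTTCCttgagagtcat
chr16:92811190-92811367, all baits but P2: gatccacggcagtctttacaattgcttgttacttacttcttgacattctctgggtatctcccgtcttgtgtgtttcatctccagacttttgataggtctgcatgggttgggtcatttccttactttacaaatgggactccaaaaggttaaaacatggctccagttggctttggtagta
chr16:92820950-92821068, all baits but P2cc: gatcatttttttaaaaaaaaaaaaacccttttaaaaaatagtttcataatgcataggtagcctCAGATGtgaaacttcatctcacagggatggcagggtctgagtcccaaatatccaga
chr16:92821411-92821577, all baits but P2cc: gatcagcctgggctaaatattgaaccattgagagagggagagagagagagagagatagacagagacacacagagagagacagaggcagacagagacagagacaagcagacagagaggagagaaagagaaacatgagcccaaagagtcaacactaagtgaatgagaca
chr16:92721322-92721496, all baits but P1: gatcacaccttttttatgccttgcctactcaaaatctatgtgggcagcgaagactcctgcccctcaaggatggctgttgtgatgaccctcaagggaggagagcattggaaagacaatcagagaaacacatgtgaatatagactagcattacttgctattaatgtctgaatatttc
The part shown of the fragment of all 6 baits held 1 RUNX core, 1 ETS motif on its other strand and 1 E-box, which overlaps the RUNX core. Windows of 300 bp tiled over the stretch held these motifs in 24.9%, 16.7% and 13.1% of cases. Among the fragments of 5 baits, 1 held the variant E-box, found in 10.5% of windows of its length, and the other 3 held no match. In the 14 fragments listed by 5 or 6 baits together, the density of RUNX cores was 1.29 matches per kb against 1.19 over all 310 fragments, and that of the partial CTCF motif was 0.575 against 0.712. ETS motifs were at 1.15 matches per kb against 0.650, in 6 of the 14 fragments and 60 of the 310. The GATA motif was found in 0 of the 14 and 54 of the 310, or 0.526 matches per kb over all. The E-box was at 0.431 matches per kb against 0.488 and the variant E-box at 1.01 against 0.952. These are counts of letters, and they do not show that a factor was bound. Only the exact letters were counted, so variant forms of a motif were missed, and a lack of matches does not show a lack of sites.

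The enhancers between the promoters are represented by the RefSeq core of the enhancer at the +24 bait and by the 3 fragments of at most 300 bp at the +110 element. No coordinates were at hand for +110, so it was placed by its name, 110 kb downstream of P1 with 500 bp to each side, at chr16:92715575-92716574. The element may lie elsewhere nearby, so the sequences printed for +110 may not be its own.
+24 core, chr16:92801650-92801884: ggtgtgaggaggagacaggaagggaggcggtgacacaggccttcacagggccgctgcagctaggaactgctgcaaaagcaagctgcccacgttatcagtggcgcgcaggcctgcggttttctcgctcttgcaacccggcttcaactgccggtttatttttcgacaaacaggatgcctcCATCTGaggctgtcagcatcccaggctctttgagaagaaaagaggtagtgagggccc
+110, chr16:92715839-92716011: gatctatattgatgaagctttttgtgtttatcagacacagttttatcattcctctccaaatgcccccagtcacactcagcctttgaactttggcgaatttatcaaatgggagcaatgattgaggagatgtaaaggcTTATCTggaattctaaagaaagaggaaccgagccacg
+110, chr16:92716012-92716233: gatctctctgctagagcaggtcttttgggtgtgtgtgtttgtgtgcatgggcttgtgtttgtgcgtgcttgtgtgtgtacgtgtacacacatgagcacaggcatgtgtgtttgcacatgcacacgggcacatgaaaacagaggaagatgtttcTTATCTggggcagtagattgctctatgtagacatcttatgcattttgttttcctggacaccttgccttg
+110, chr16:92716234-92716333: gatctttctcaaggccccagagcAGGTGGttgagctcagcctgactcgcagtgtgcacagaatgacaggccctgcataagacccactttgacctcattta
Of the exact letters counted, the +24 core held the variant E-box on the minus strand, as 19.6% of windows of its length did. Other forms of the motifs were not looked for, so the core is not read as lacking the remaining ones. At +110 a GATA motif on the minus strand was found in each of the first 2 fragments, against 8.48% and 10.7% of windows of these lengths, and the partial CTCF motif in the third, against 6.65%.

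The promoters themselves are given as 300 bases around the RefSeq start site, read on the minus strand, most of them before it. These windows were added after the values were seen.
P1, chr16:92826025-92826324: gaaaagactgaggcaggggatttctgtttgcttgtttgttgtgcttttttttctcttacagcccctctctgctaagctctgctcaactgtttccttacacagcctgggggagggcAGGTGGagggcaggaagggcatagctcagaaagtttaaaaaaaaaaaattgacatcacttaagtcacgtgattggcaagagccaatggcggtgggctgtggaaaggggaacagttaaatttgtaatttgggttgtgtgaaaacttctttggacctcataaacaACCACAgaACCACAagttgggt
P2, chr16:92697280-92697579: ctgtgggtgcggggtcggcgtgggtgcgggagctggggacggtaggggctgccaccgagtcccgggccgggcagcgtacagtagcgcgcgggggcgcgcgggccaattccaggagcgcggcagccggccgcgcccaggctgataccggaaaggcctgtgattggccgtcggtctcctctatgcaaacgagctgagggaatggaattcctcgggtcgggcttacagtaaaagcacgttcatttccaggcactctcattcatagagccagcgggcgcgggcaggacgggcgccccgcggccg
The P1 window had a GC content of 45.0% and 2 CpG dinucleotides. It held 2 RUNX cores on its other strand, just downstream of the start site, and the partial CTCF motif 1 time. Of windows of 300 bp, 24.9% hold at least 1 RUNX core and 19.5% at least 1 partial CTCF motif. The P2 window had a GC content of 69.0% with 35 CpG dinucleotides and no match to the motifs.

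The +24 baits formed significant interactions with most of the DNA between the promoters, and the promoter baits with less of it. The +24 bait listed 223 of the 310 fragments, 71.9% (95% Wilson interval 66.7 to 76.6), against 21.2% of the fragments of the whole domain. For +24cc the count was 247, 79.7% (74.8 to 83.8), against 24.9% in the domain. P2 listed 120 fragments, 38.7% (33.5 to 44.2), against 9.59%, and P2cc 91 fragments, 29.4% (24.6 to 34.7), against 9.69%. At the other end, P1 listed 86 fragments, 27.7% (23.1 to 33.0), against 12.1%. P1cc listed 66, 21.3% (17.1 to 26.2), against 16.1%, which was the share closest to its background. The +24 and +24cc baits lie inside the stretch, 24.3 and 25.6 kb from P1, and the promoter baits at or near its ends. DNA close to a +24 bait is thus inside on both sides, and DNA close to a promoter bait is partly outside. The domain is not matched for distance from the bait, so these shares do not separate the bait from its position. The intervals cover counting error only and are too narrow, since neighbouring fragments share windows and are not independent.

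**Figure D1:**
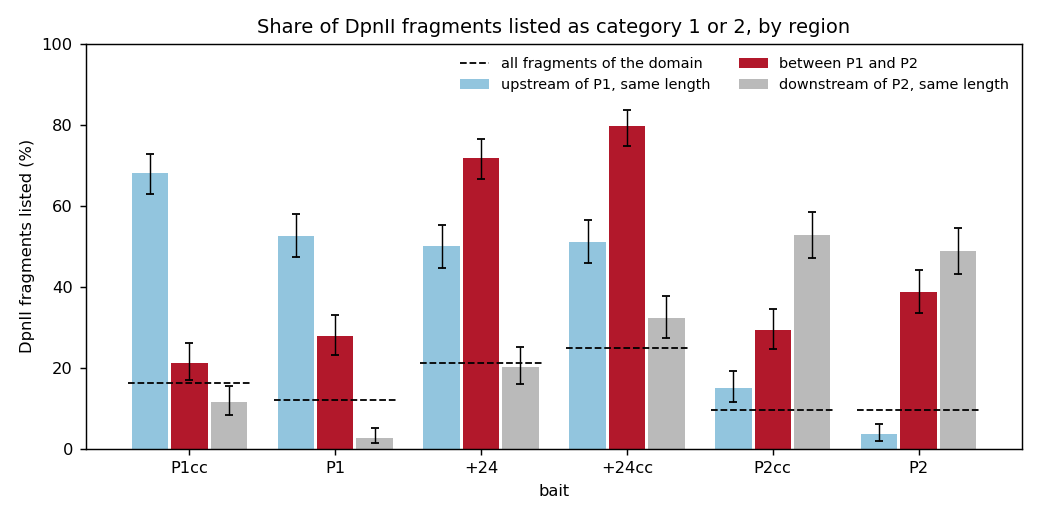
Percent of *Dpn*II fragments listed as category 1 or 2 by each bait (x axis) between the promoters and in flanks of the same length; error bars are 95% Wilson intervals and dashed lines give the share over the whole domain. Only the +24 pair, whose baits lie inside the stretch, listed more between the promoters (71.9% and 79.7%) than in both flanks. The promoter baits lie at or near its ends.

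Set against flanks of the same length, the baits of each site had their own side. The +24 bait listed 169 of the 338 fragments in a stretch of the same length upstream of P1 and 20.2% of those downstream of P2, and +24cc 51.2% and 32.3%. P1 and P1cc listed 52.7% and 68.0% upstream of P1, more than between the promoters, and 2.69% and 11.4% beyond P2. The shares of P2 and P2cc were highest beyond P2, at 48.8% and 52.9%, and were 3.55% and 15.1% upstream of P1. Between the promoters lay 38.8% of all fragments that P2 listed in the domain, 29.2% for P2cc, 32.7% for +24, 30.8% for +24cc, 22.1% for P1 and 12.7% for P1cc. These shares are descriptions, with no test, because fragments of 1 list are not replicates.

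Most listings were of category 1. In the list of +24, 218 of the 223 fragments were category 1, which is 97.8%, against 61.0% of its fragments in the rest of the domain. For +24cc the count was also 218, or 88.3% of its list, against 49.0% in the rest. P1 had 93.0% between the promoters and 84.2% in the rest, while P2cc (84.6% and 85.5%) and P2 (84.2% and 83.1%) had nearly the same shares in both and P1cc a lower one (57.6% and 65.2%). As a share of all 310 fragments both came to 70.3%, against backgrounds of 15.5% for +24 and 15.2% for +24cc. P1 listed 80 fragments as category 1 (25.8%, background 10.4%), P1cc 38 (12.3%, background 10.4%), P2cc 77 (24.8%, background 8.26%) and P2 101 (32.6%, background 8.01%). The categories came in blocks. Of the 50 runs of abutting fragments that the baits listed, 37 were category 1 throughout, 10 held no category 1 fragment and 3 were mixed. In all, 305 members were category 1 for at least 1 bait and 4 were category 2 only.

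**Figure D2:**
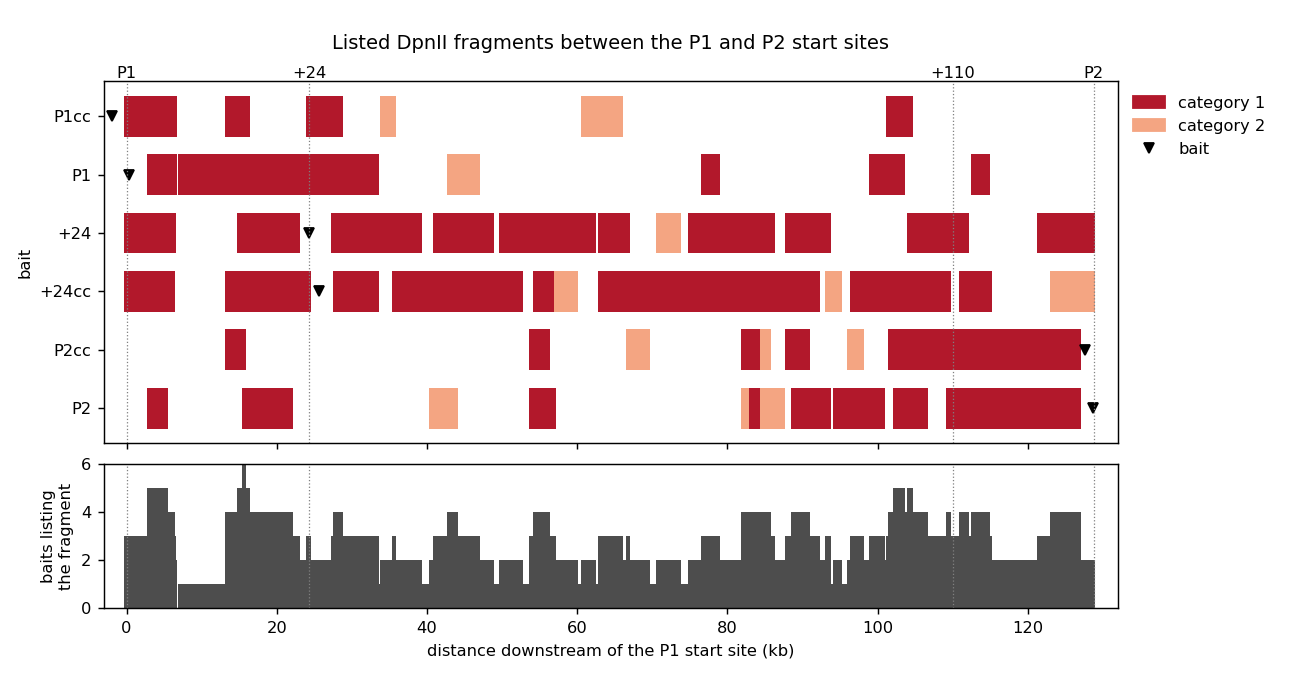
Top, fragments listed by each bait (rows) as category 1 (dark red) or category 2 (light) by distance downstream of the P1 start site in kb, with the baits as triangles; bottom, the number of baits listing each fragment. The +24 pair covers the middle, where the promoter baits list short isolated runs.

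The middle of the stretch was covered by the +24 pair, which also listed most of the rest. Between 40 and 80 kb downstream of P1 there were 114 fragments, of which +24 or +24cc listed 112, the P1 pair 29 and the P2 pair 24. These shares were 98.2%, 25.4% and 21.1%, against 91.6%, 38.7% and 43.5% over all 310 fragments. +24 listed 92 of the 114 (80.7%, against 71.9% over all) and +24cc 100 (87.7%, against 79.7%). In the 40 kb next to P1, with 88 fragments, the counts were 75 for the +24 pair, 71 for the P1 pair and 20 for the P2 pair. In the remaining 108 fragments, toward P2, they were 97, 20 and 91. The longest runs in kb lay as follows. That of +24cc, chr16:92733781-92763301, joined 71 fragments over 29.5 kb in the middle, and that of +24, chr16:92763579-92776440, joined 45 fragments over 12.9 kb. P1 had its longest run near P1, chr16:92792478-92819216, with 47 fragments over 26.7 kb, which took in the +24 enhancer. That of P1cc was chr16:92819303-92826361, next to P1, with 14 fragments over 7.06 kb, although its run of the most fragments was in the middle, 18 fragments over 5.58 kb at chr16:92759959-92765540. P2cc and P2 both had theirs from 92699056, up to 92724737 (53 fragments, 25.7 kb) and 92716995 (34 fragments, 17.9 kb).

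Shares by distance were taken toward P2 for the P1 and +24 pairs and toward P1 for the P2 pair. The side of the +24 baits that faces P1 was left out. From 40 to 100 kb from the bait, the +24 baits each listed more of the DNA than any promoter bait did. In the 20 kb next to the bait, on the side measured, P1 listed 90.9% of the fragments, P1cc 64.5%, +24 83.6%, +24cc 75.0%, P2cc 92.5% and P2 82.9%. At 40 to 60 kb the +24 bait still listed 71.1% (32 of 45 fragments) and +24cc 100% (49 of 49). At the same distance P1 listed 10.0% (6 of 60), P1cc 0 of 60, P2cc 29.2% (14 of 48) and P2 26.0% (13 of 50). At 80 to 100 kb the shares were 61.0% for +24 and 59.5% for +24cc, 2.33% for P1, 16.7% for P2, and 0 for both P1cc and P2cc. The shares did not fall steadily with distance. P1cc had 32.7% (18 of 55) at 60 to 80 kb, all of them in its category 2 run in the middle. From 100 to 120 kb, P1 listed 33.3% (15 of 45), P1cc 21.3% (10 of 47), P2 30.6% (11 of 36) and P2cc 13.9% (5 of 36), and the +24 pair has under 20 fragments at that distance. The bins of the promoter baits and of the +24 pair cover different DNA, since the baits start from different places.

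**Figure D3:**
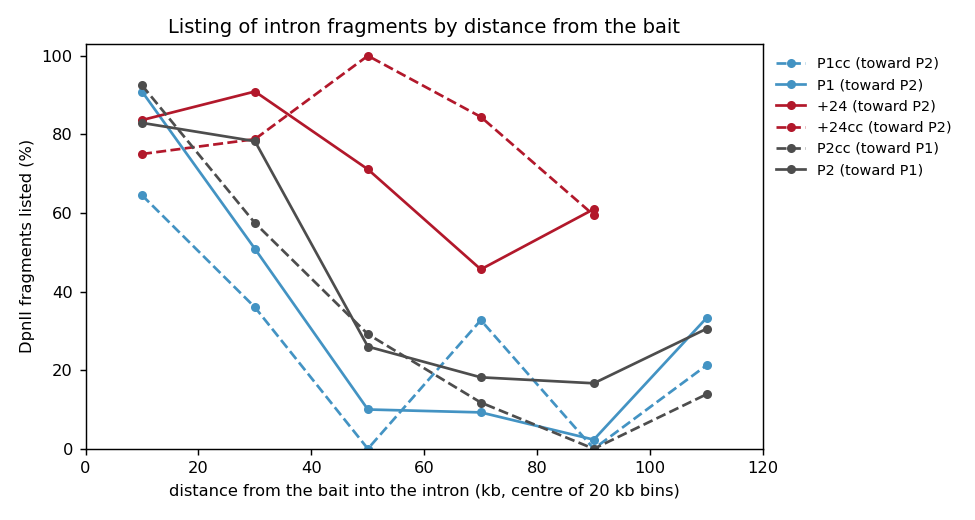
Percent of *Dpn*II fragments listed (y axis) in bins of 20 kb by distance from the bait (x axis, kb). Distances run toward P2 for the P1 and +24 pairs and toward P1 for the P2 pair. The +24 and +24cc lines (red) stay at or above 45.7% up to their last bin, 80 to 100 kb, while the 4 promoter lines are at 29.2% or less from 40 to 60 kb and higher again from 100 to 120 kb than from 80 to 100 kb.

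Over the whole length, both promoter pairs listed less DNA toward each other than away from each other. Within 20 kb of P1, its pair listed 96.9% of the fragments on the intron side and 98.4% on the outer side. From 40 to 80 kb the shares were 25.4% (29 of 114) and 77.6% (83 of 107), and beyond 80 kb 18.5% and 59.5%. For the P2 pair they were 85.4% and 87.0% within 20 kb, 26.7% (31 of 116) and 81.9% (77 of 94) from 40 to 80 kb, and 27.1% and 46.5% beyond. From 20 to 40 kb the sides were closer, at 71.4% and 84.6% for the P1 pair and 87.0% and 91.7% for the P2 pair. Over the whole 128.7 kb the P1 pair listed 38.7% of the fragments inward and 76.3% outward, and the P2 pair 43.5% and 72.4%. For single baits these totals were 27.7% and 52.7% for P1, 21.3% and 68.0% for P1cc, 38.7% and 48.8% for P2, and 29.4% and 52.9% for P2cc. The single baits of P2 did not follow this order at every distance. P2 listed more inward within 20 kb (82.9% and 64.8%) and beyond 80 kb (23.4% and 21.8%), and P2cc did within 20 kb (85.4% and 81.5%) and from 20 to 40 kb (58.7% and 54.2%). The authors dropped self-ligated reads and fragments next to a bait. The unlisted gap around the P2 bait held 17 fragments, of which 6 lay on the intron side. The part of this gap in the contrast within 20 kb was not tested. When abutting fragments were merged into interactions and those within the same distance on both sides were counted, 8 of 19 interactions of the P1 pair and 9 of 21 of the P2 pair lay on the intron side. The odds ratio was 1.03 (95% interval 0.247 to 4.34, p = 1, two-sided Fisher's exact test), and since the test counts interactions of pooled lists as independent, nothing is drawn from it.

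**Figure D4:**
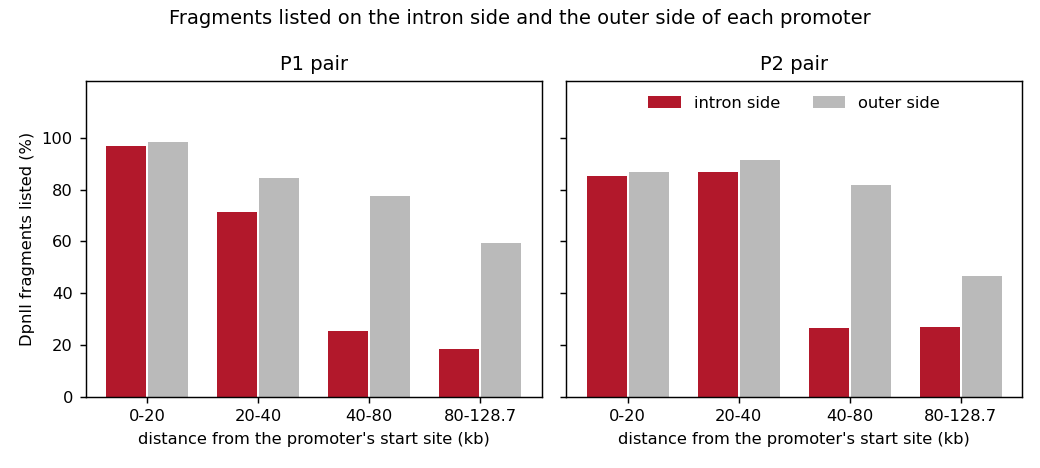
Percent of *Dpn*II fragments listed by either bait of the P1 pair (left) and the P2 pair (right) on the intron side (red) and the outer side (grey), by distance from the start site in kb. From 40 kb on, the intron side is at 27.1% or less and the outer side at 46.5% or more.

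The promoter pairs overlapped in part of the DNA between them. The P1 pair listed 120 fragments and the P2 pair 135, and 37 fragments were in both, 30.8% of the first and 27.4% of the second. Over all 310 fragments the P2 pair listed 43.5% and the P1 pair 38.7%, which are the backgrounds of these shares. All 37 were also listed by the +24 pair, whose own background is 91.6% (284 of 310). The +24 pair alone listed 91 fragments, 69 were shared by it and the P1 pair only and 87 by it and the P2 pair only. The P1 pair alone listed 14 and the P2 pair alone 11. The 37 shared fragments formed 6 runs, of which the longest, chr16:92803934-92813026, spanned 9.09 kb between the +24 enhancer and P1.

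By single baits, 42 fragments were listed by 1 bait, 105 by 2, 82 by 3, 66 by 4, 13 by 5 and 1 by all 6. The fragments of 1 bait were 13.6% of the members, and this share depends on what is counted as a bait or a listing. It was 25.9% with category 1 only, 37.5% with each pair joined and 53.4% without the cc baits. The fragments of 1 bait were short, with a median length of 125.5 bp, against 240 bp over the stretch and 389 bp for those of 5 baits. The part of length in the number of baits was not tested. Of the 42, 24 were listed by +24cc alone, 8 by P1, 5 by +24, 3 by P2 and 2 by P1cc. All 19 fragments shorter than 30 bp, the shortest read that was mapped, were also members. They carried 47 listings between them, a mean of 2.47 baits against 2.70 for longer fragments, and the calls were made on windows of 3 fragments.

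Fragments listed by 5 or 6 baits lay at 4 places. Lists that cover 21.3% to 79.7% of the 310 fragments would share some fragments even if they were unrelated. The number to be had from list sizes alone was not worked out, so the count of 14 such fragments is not read as an excess. The first, chr16:92820561-92823329, began 2.75 kb downstream of P1 and held 5 fragments that all baits but P2cc listed as category 1. It was the only place within 15 kb of P1 that P2 listed on the intron side. The second, chr16:92809570-92811367, was 14.7 to 16.5 kb downstream of P1 and held the fragment of all 6 baits, chr16:92810176-92810642, whose middle is printed above. Its 4 fragments were each listed by P1cc, P1, +24 and +24cc, and the P2 baits differed among them. The others, chr16:92722425-92724007 and chr16:92721322-92722126, lay 102 to 105 kb downstream of P1, near P2. The former had 3 fragments, listed by all baits but +24, and the latter 2, listed by all baits but P1, every time as category 1.

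On the intron side, P2 came closer to P1 than P1 came to P2. The nearest fragment that P2 listed on the intron side lay 2.75 kb from the P1 start site, and that of P2cc 13.0 kb. On the outer side of P1, P2cc had a category 1 fragment at 3.14 kb. On the way to the P2 start site, the last run of P1 (chr16:92711051-92713708) stopped at 13.7 kb and that of P1cc at 24.0 kb. The fragment that holds the P1 bait and start site, chr16:92825095-92826361, was listed as category 1 by P1cc, +24 and +24cc, and by neither P2 bait. The fragments that hold the P2 bait (chr16:92697179-92697620) and the P2cc bait (chr16:92697788-92698772) were each listed by +24 as category 1 and by +24cc as category 2, and by neither P1 bait. The fragments of both start sites were listed by the +24 pair and not by the pair of the other promoter.

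The +24 enhancer was reached directly by P1 and P1cc. They listed the fragment of the +24 bait, chr16:92801543-92802165, and that of the +24cc bait, chr16:92798858-92800579, all as category 1. Of the P2 pair, P2 came within 1.91 kb of the RefSeq enhancer fragment (chr16:92801496-92802028) and P2cc within 8.15 kb. By direct overlap, +110 as placed by its name was listed by the P2 pair and not by the P1 pair. P2, P2cc and +24 each listed all 5 fragments there as category 1 and +24cc listed 1 of the 5, while P1 came within 1.87 kb and P1cc within 4.75 kb. Counted within 2 kb instead, the +24 enhancer had P1cc, P1 and P2, which is 3 of the 4 baits of the promoters, and +110 had 5 of the 6 baits, all but P1cc, so the contrast between the elements depends on the distance allowed. The study chose +24 as a bait and +110 partly for an interaction nearby, so these listings are descriptions and no independent evidence. P2 and P2cc listed all of the DNA from +110 to the gap around their own baits, so +110 is not set apart from its surroundings in their lists. The study itself differs from the direct overlap given here. It records +110 as contacted by +24 and P1, and states that a contact with P2 could not be resolved. Whether the placement of +110 by its name accounts for this difference was not tested.

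Some DNA close to P1 was listed by P1 alone. The stretch chr16:92813027-92819216, 6.86 to 13.0 kb downstream of P1, held 8 fragments over 6.19 kb, all category 1 for P1 and listed by no other bait. It contains the last exon of *Runx1*-207 (chr16:92815428-92817708), whose 4 fragments P1 listed. Its GC content was 45.6% and 21.2% of its bases were soft-masked repeats, against 46.8% and 18.3% over the whole stretch between the promoters, and its fragments were long, with a median of 699.5 bp. The DNA next to it was listed by 4 baits on the side of +24 (P1cc, P1, +24cc and P2cc) and by P1cc and P1 toward P1. Between it and the latter lay the only fragment of the 310 that no bait listed, chr16:92819217-92819302, of 86 bp. Near P2 there was a counterpart, chr16:92704890-92710837, where 7 fragments over 5.95 kb were listed by P2 and P2cc and by no other bait. Neither +24 nor +24cc listed these stretches, and the other 3 that both left out held 4, 2 and 2 fragments. Among them were the fragment of the +24cc bait and its neighbour next to the +24 bait. There the authors dropped self-ligated reads and fragments next to a bait, so that gap is not read as a lack of contact. P2cc listed no fragment alone. The remaining baits had only short runs of their own, the longest of which were 6 fragments for +24cc (chr16:92755618-92756438 and chr16:92785849-92786801), 3 for +24 (chr16:92765541-92765977), 3 for P2 (chr16:92730183-92730838) and 2 for P1cc (chr16:92763302-92763578).

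The gene *Gm30281* (chr16:92762209-92767240) lies in the middle, 61.3 kb from P1, and spans 26 fragments. +24 listed 24 of them, all as category 1, and +24cc 15, of which 8 were category 1. P1cc listed 16, all as category 2. P1, P2 and P2cc listed none, with their nearest fragments at 11.8, 1.67 and 2.47 kb. Over all 310 fragments the shares listed were 71.9% for +24, 79.7% for +24cc and 21.3% for P1cc. They were 27.7% for P1, 38.7% for P2 and 29.4% for P2cc.

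Baits of the same site shared more of the listed DNA than the sizes of their lists alone would give. Of the bases listed by +24 or +24cc, 70.9% were listed by both, where 2 unrelated lists of the same coverage would share 58.9%. For P2 and P2cc the share was 51.7% against 23.9%, and for P1 and P1cc 26.3% against 14.99%. These coverage values are arithmetic and no test, and the shares follow the size of the lists, so the sites are not ranked by them. Of baits from different sites, the highest shares were those of +24cc with P2 (40.4% against 39.98%), +24 with P2 (34.7% against 37.1%), +24cc with P1 (31.6% against 32.0%) and +24cc with P2cc (30.2% against 31.4%). All 12 such combinations ranged from 8.39% to 40.4%, with a median of 21.7%. The lowest were P1cc with P2 (8.39% against 16.5%), P1 with P2cc (9.62% against 20.8%) and P1cc with P2cc (9.69% against 14.9%). P1 and P1cc shared 32 fragments, 37.2% of the list of P1 and 48.5% of that of P1cc. A bait and its cc bait lie close together. With DNA within 20 kb of either bait left out, the shares were 68.1% at +24, 34.7% at P2 and 20.6% at P1, and the median over baits from different sites was 11.8%.

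Counted as merged interactions, the order of the baits changed. Merging joined most of the 284 fragments of the +24 pair into 5 long interactions between the promoters, of 8.08 to 35.3 kb, out of 62 in the domain (8.06%, 95% interval 3.49 to 17.5). Its fragments next to P1 fell into another interaction, whose midpoint lay upstream of P1. The P1 pair had 8 of 50 (16.0%, 8.34 to 28.5) and the P2 pair 9 of 33 (27.3%, 15.1 to 44.2). The P2 pair against the +24 pair gave an odds ratio of 4.20 (95% interval 1.13 to 17.7, adjusted p = 0.0497, two-sided Fisher's exact test over 3 comparisons). This is not taken as a difference between the pairs. The test treats interactions of pooled lists as independent, which they are not, and dense listing leaves the +24 pair few merged units. The odds ratio was 1.09 when fragments were not merged, and the call was lost under 6 alternatives in all. By the same exact test the P2 pair against the P1 pair gave an odds ratio of 1.95 (0.582 to 6.69, adjusted p = 0.270), and the +24 pair against the P1 pair one of 0.464 (0.111 to 1.74, adjusted p = 0.270), which was 1.78 without merging. By bases, the +24 pair listed 87.2% of the stretch, the P2 pair 51.8% and the P1 pair 44.1%.

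The share of interactions that held a category 1 fragment was compared with the rest of the domain. For the +24 pair it was 5 of 5 between the promoters and 29 of 57 elsewhere (adjusted p = 0.175, two-sided Fisher's exact test over 3 comparisons). For the P1 pair the counts were 5 of 8 and 27 of 42 and for the P2 pair 7 of 9 and 17 of 24 (adjusted p = 1 for both, Fisher's exact test). These tests too count interactions as independent, and a longer interaction has more fragments that could be category 1. With so few interactions they leave wide intervals, and a p that misses the threshold does not show that the shares were alike.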

How the data were processed

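4C-seq of *Runx1* in HPC-7 cells comprised 12 4C-seq libraries (6 baits with 2 replicates each) and 6 non-ligated controls, all amplified from the same 2 preparations of cells and their mixed control. Bowtie1 mapping to mm10 by the authors took trimmed reads down to 30 bp and 0 mismatches; they dropped self-ligated reads, uncut reads and fragments with control reads, and called interactions with fourSig (window of 3 fragments, 1000 iterations, fdr 0.01) on chromosome 16 and in the domain. Calls were overlapped between replicates. The deposited lists give the fragment, its category and a score, which the authors set to 1000 throughout and which was not used. The lists hold no read depth and no values per library, so libraries could be neither compared nor left out here. Replicates came from 1 cell line.

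*Dpn*II fragments were located in GRCm38.p6, whose coordinates are those of mm10, and the annotations were RefSeq and GENCODE M21. Baits were placed by their primers with edlib 1.3.9.post1, with at most 1 difference. Shares have 95% Wilson intervals. Overlapping or abutting fragments were merged into interactions and placed by their midpoint, and their counts were compared by Fisher's exact tests (scipy 1.17.1) with Benjamini-Hochberg adjustment (statsmodels 0.14.6) and a threshold of 0.05. Scripts (Python 3.11.15, numpy 2.4.6, matplotlib 3.10.9) were tested on simulated data. Motifs were counted in windows tiled every 50 bp.

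The members, lists and tests were chosen with earlier results of these data known. Regions named are the baits, start sites and exons, the +24 and +110 elements, the fragments listed by the most baits as category 1, the longest run of each bait and its longest run alone, and DNA listed by no bait. Other regions were named after their values were seen. Alternatives were category 1 alone, no cc baits, baits counted separately, bases for fragments, other merging, other distances, fragments of 60 bp or more, and DNA within 20 kb of a bait left out.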

Additional observations from a re-analysis of the deposited data

How the results depend on the processing

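The values depend on how a listing is counted. Of 88 results under alternatives, 56 kept their direction and call or, where they have no test, moved by less than their counting interval, or for counts by at most 1.5 times. The percent of fragments listed moved for P1cc to 12.3 (category 1 only) and 16.5 (DNA within 20 kb of the bait left out), for P1 to 34.9 (bases) and 20.2 (without 20 kb), for +24cc to 70.3 (category 1), for P2cc to 20.2 (without 20 kb) and for P2 to 32.6 (category 1), 44.5 (bases) and 32.0 (without 20 kb). Fragments listed by 1 bait were 13.6% of the members, 25.9% with category 1 only, 53.4% without the cc baits and 37.5% with pairs joined. By Fisher's exact test, the share of interactions between the promoters, P2 pair against +24 pair, was no longer called with category 1 only (odds ratio 2.51, adjusted p = 0.486), both baits summed (2.10, 0.108), no cc baits (2.18, 0.271), merging up to 1 kb (3.83, 0.224), no merging (1.09, 0.492) or any base inside (3.45, 0.113). That of the P2 pair against the P1 pair was called by the exact test only without merging (1.95, adjusted p = 6.57e-06), where fragments that are not independent are the units. The +24 pair against the P1 pair turned direction when summed (1.17), without cc baits (1.10) and without merging (1.78, exact test, adjusted p = 5.08e-06). The inner share of the P2 pair against the P1 pair turned to an odds ratio of 0.785 with merging up to 1 kb. The category 1 share of the P1 pair, 1.79 percentage points lower between the promoters, became 13.2 points higher summed, 14.4 without cc baits and 1.80 with merging up to 1 kb, that of the P2 pair went from 6.94 points higher to a difference of 0 with merging up to 1 kb, and that of the +24 pair passed the threshold only when summed (37.5 points higher, exact test, adjusted p = 0.0135), which counts contacts that +24 and +24cc share 2 times and supports no call. With DNA within 20 kb of either bait left out, the median share of bases listed by both baits fell from 51.7% to 34.7% for baits of the same site and from 21.7% to 11.8% for the others. Of the 4 baits outside its own pair, the P1 start site had 2 within 2 kb and 4 within 5 kb. The P2 start site had 2 of its 4 such baits, or 1 with category 1 only. The cause of these changes was not tested beyond the construction of each alternative.

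No paired analysis was possible because the deposited lists hold only calls shared by both replicates, with no values per replicate. For the same reason no replicate was left out, and no limit set by depth is given.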
